A study of Mus musculus with 90 samples.

Results

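Fkbp5, Tsc22d3, Sgk1, Zbtb16, Errfi1 and Dusp1 are 6 genes widely used as readouts of the glucocorticoid receptor (GR, encoded by Nr3c1), and their mRNA was followed here in mouse liver across meals, hormone treatments, knockouts and diets. They were picked by name out of 24312 gene symbols in the RNA table, and where a symbol had several RefSeq transcripts the one with the highest mean level was read (1 of 3 for Tsc22d3, 1 of 6 for Sgk1). The series holds 90 samples, of which 54 are RNA libraries of single livers, and the values are RPKM (reads scaled to library size and to transcript length). All groups were kept on night-restricted feeding (NRF), in which food is present only during the dark phase. ZT counts hours from lights on, food was given at ZT12 to fed groups, and every liver was taken at ZT14 unless stated.

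The groups were as follows. In wild-type C57BL/6 mice (C57BL/6N in the study's methods) without injection, 2 livers were taken at ZT10, 2 at ZT14 without food (ZT14-unfed) and 2 at ZT14 after a meal (ZT14-fed). In injected wild-type C57BL/6 mice (C57BL/6N likewise) there were 4 livers per group: unfed with vehicle, and fed with vehicle, with 1 mg/kg of the synthetic glucocorticoid dexamethasone (dex), with S961 (a peptide antagonist of the insulin receptor), or with both. The S961 dose is labelled as 44 nM per mouse and given as 44 nmol/kg in the methods. These wild-type mice were males of 10 weeks. The liver GR knockout (L-GRKO) was made in adult Nr3c1 fl/fl mice on a C57BL/6 background, C57BL/6N by the methods, with an adeno-associated virus carrying Cre under the liver-specific Tbg promoter, its controls were Nr3c1 fl/fl mice given the same vector with GFP, and all 8 livers were unfed. The liver IRS1 and IRS2 double knockout (L-IRSdKO) carried Irs1 fl/fl, Irs2 fl/fl and Alb-Cre on a C57BL/6 background, C57BL/6J by the methods, its controls were labelled Irs1 fl/fl, Irs2 fl/fl without Cre, and all 8 mice, controls included, were fed and had received 1 mg/kg dex. By the methods, the L-IRSdKO mice began night-restricted feeding at 10 weeks of age. Lean mice had 10 weeks of chow and obese mice 10 weeks of high-fat diet, both followed by night-restricted feeding, with 3 unfed and 3 fed livers each. By the methods, high-fat feeding began in males under 10 weeks of age, so the obese mice were older at sampling than the wild-type mice above. The methods give no separate sex or age for the lean mice. The paper refers to the obese mice as C57BL/6.

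Glucocorticoids enter the cell and bind GR, which sits in the cytoplasm in a complex with heat-shock protein chaperones, moves to the nucleus and binds glucocorticoid response elements (GREs), an inverted repeat of GNACA and TGTNC separated by any 3 bases. In liver, GR acts during fasting beside the forkhead factor FOXO1, which insulin signalling through IRS1, IRS2 and AKT removes from the nucleus after a meal. The products of the 6 genes differ in role. FKBP5 is a co-chaperone of the GR complex that lowers its affinity for hormone. TSC22D3 (also called GILZ) and DUSP1, a phosphatase that switches off MAP kinases, are mediators of anti-inflammatory glucocorticoid action. SGK1 is a protein kinase related to AKT, ERRFI1 (also called MIG6) binds and inhibits the EGF receptor family, and ZBTB16 (also called PLZF) is a zinc-finger transcription factor.

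GR binding was present near all 6 genes in unfed livers. The paper describes the GR and FOXO1 lists as peaks shared by replicates of ZT14-unfed livers, and reports lower occupancy after feeding. Binding in the other groups was not read here. In the deposited list of 10446 GR peaks (ChIP-seq, 180 bp each, mm9 coordinates), 32 peaks were centred within 50 kb of one of the 6 start sites. Tsc22d3 had 12, Fkbp5 9, Zbtb16 4, Dusp1 3, and Sgk1 and Errfi1 2 each. Of 9927 expressed genes, 47.5% had at least 1 GR peak within that distance. As many as at Tsc22d3 were found at 0.0201% of them, and as many as at Fkbp5 at 0.363%. The counts at the other members were more common, with 8.31% of genes reaching that of Zbtb16, 14.4% that of Dusp1 and 26.3% that of Sgk1 and Errfi1. Window size mattered for Zbtb16 and Errfi1: each had 11 GR peaks within 100 kb, and the Zbtb16 gene body alone held 14, whereas 8 Errfi1 peaks lay upstream, at -99.5 to -55.0 kb from its start. FOXO1 peaks (8546 in all) within 50 kb numbered 5 at Fkbp5, 5 at Tsc22d3, 2 at Zbtb16, 1 at Sgk1, 1 at Dusp1 and none at Errfi1.

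**Figure D1:**
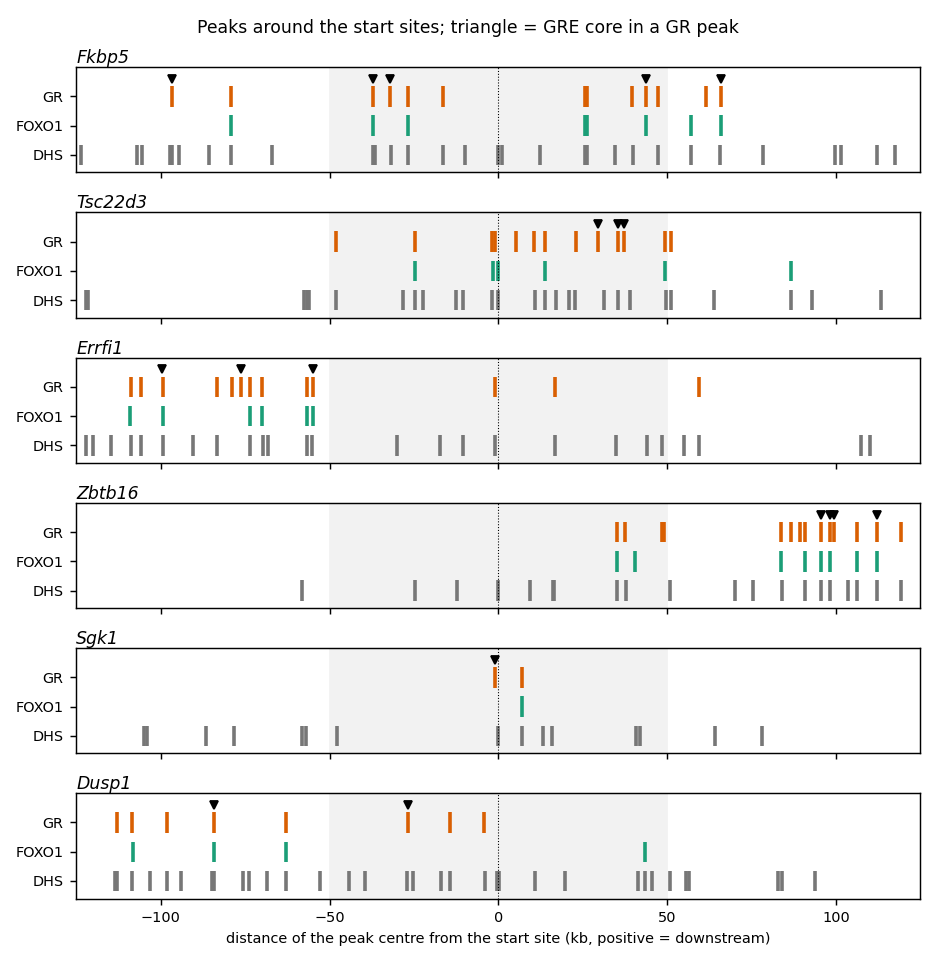
GR and FOXO1 peaks of ZT14-unfed livers, and DNase-hypersensitive (DHS) peaks, around the start site of each of the 6 genes. The horizontal axis is the distance of the peak centre from the start site in kb, oriented with the gene so that negative values are upstream, the grey band covers 50 kb on either side, and triangles mark GR peaks with a GRE core. Tsc22d3 and Fkbp5 carry 12 and 9 GR peaks in the band, whereas most peaks of Errfi1 lie upstream of it.

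The GRE core was read from the mm9 sequence under each GR peak, as GNACA, any 3 bases, then TGTNC, a pattern that is its own reverse complement and so was read once for both strands. It was found in 8 of the 32 member peaks (25%), against 7.8% of all GR peaks, 3.25% of FOXO1 peaks and 0.561% of DHS peaks (168 bp each). A FOXO1 peak overlapped 11 of the 32 (34.4%), against 48.8% of all GR peaks, and a DHS overlapped 22 (68.8%), against 81.6%. These shares are descriptions of the peak lists, and peaks around one gene are not independent of each other. For each gene the GR peak with a core nearest to its start site is printed here, since these are the sites where binding and this core coincide. No GR peak within 50 kb of Zbtb16 or Errfi1 had the core, and the nearest one beyond is shown for them. A looser pattern, arms AGAACA and TGTTCT around any 3 bases with up to 2 mismatches, lay in 9 of the 32 peaks. Its share over all GR peaks was 9.95%. It lay in 2 of the 4 Zbtb16 peaks within 50 kb, at 48.4 and 49.0 kb, and in a Tsc22d3 peak at -0.9 kb. No Errfi1 peak within 50 kb held it. Sequences are the plus strand of mm9, 5′ to 3′, with the GRE core in capitals.
Fkbp5 GR peak, chr17:28654979-28655158: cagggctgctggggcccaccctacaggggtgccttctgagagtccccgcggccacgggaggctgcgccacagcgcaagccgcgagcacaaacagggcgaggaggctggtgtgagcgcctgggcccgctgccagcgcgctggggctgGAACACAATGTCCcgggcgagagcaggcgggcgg
Tsc22d3 GR peak, chrX:137048012-137048191: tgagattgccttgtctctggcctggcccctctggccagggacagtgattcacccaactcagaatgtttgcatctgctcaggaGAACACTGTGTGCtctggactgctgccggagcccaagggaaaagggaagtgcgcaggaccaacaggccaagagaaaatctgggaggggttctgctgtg
Sgk1 GR peak, chr10:21713383-21713562: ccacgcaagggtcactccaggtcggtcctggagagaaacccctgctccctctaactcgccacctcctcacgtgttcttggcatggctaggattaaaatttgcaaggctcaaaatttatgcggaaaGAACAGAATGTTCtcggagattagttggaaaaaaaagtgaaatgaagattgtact
Zbtb16 GR peak, chr9:48548285-48548464: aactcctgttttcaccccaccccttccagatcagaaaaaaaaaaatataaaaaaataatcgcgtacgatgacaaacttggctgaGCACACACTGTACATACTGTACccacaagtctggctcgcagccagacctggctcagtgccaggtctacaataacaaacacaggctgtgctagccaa
Errfi1 GR peak, chr4:150174124-150174303: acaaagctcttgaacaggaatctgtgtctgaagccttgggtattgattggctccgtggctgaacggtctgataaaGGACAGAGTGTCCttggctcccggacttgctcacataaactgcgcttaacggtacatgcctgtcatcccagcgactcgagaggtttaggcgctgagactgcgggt
Dusp1 GR peak, chr17:26672190-26672369: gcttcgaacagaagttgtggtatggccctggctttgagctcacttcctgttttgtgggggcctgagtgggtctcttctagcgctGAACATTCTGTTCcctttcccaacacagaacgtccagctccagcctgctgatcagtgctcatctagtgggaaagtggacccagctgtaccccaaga

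These sites differed in position. The Sgk1 peak lay 1.0 kb upstream of the start site, inside an intron of the longer Sgk1 isoforms (gene span chr10:21601990-21719709, plus strand, start site 21714472). It was 224 bp from another annotated Sgk1 start and overlapped neither a FOXO1 nor a DHS peak. The Dusp1 peak was intergenic, 26.8 kb upstream (gene span chr17:26642535-26645464, minus strand), within a DHS. The Fkbp5 peak was intergenic and 32.0 kb upstream of the start site used here, but only 599 bp from another annotated Fkbp5 start (gene span chr17:28536040-28654469, minus strand, start site 28623094), and it overlapped a DHS. The Tsc22d3 peak was 29.6 kb downstream of the start site, past the gene's end (gene span chrX:137074067-137135198, minus strand, start site 137077726), with neither overlap. The Zbtb16 peak was in an intron 95.7 kb into the gene (chr9:48462416-48644050, minus strand), where 2 cores share bases. The Errfi1 peak was intergenic, 55.0 kb upstream (gene span chr4:150228028-150243001, plus strand, start site 150229182). The Zbtb16 and Errfi1 sites overlapped both a FOXO1 and a DHS peak.

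Before the RNA results, the libraries themselves set some limits. Depth was estimated from low RPKM values of genes with 1 annotated transcript, each value taken as 1 read. It was 25.7 to 38.9 M reads (M stands for mega) in the uninjected mice and 6.46 to 13.5 M in the injected mice. The estimate was 12.9 to 26.9 M in the L-GRKO experiment, 3.72 to 4.47 M in the L-IRSdKO experiment and 17.0 to 61.7 M in the diet experiment. For all 8 libraries of the L-IRSdKO experiment and for L-GRKO replicate 1, the study's sequencing summary lists clearly more reads than estimated. The values of 3.72 to 4.47 M and of 12.9 M are therefore too low. All 6 genes passed the filter of a mean of 0.5 RPKM in every experiment. The L-IRSdKO experiment stood apart: its most abundant gene, Alb, reached only 673.9 to 914.2 RPKM in all 8 libraries, and the summed hepatocyte markers 2318 to 2895 RPKM, against 29407 to 75812 in the other experiments. Errfi1 lay at 354 to 399 RPKM there, not far below the top gene, so levels in that experiment were compared only within it. Whether differences within that experiment were affected as well was not tested. Scaling all libraries of an experiment to their median ratio moved the median of all genes by more than 0.1 on the log2 scale in 3 comparisons: from -0.0972 to 0.0104 for time of day, from 0.1181 to -0.005 for the meal in uninjected mice and from 0.1001 to -0.0098 for the meal in vehicle-injected mice. Each share of genes called is therefore followed by the share after that scaling. Hepatocyte markers were the most abundant marker list in every group. The labels give single mice per library, so the spread is that between animals, and in whole liver fewer cells of a type and less RNA per cell cannot be told apart.

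Loss of GR in hepatocytes was followed by lower Fkbp5, Tsc22d3, Zbtb16 and Errfi1, but not by a detectable change in Sgk1. The targeted gene came first: Nr3c1 measured 12.8, 14.5, 13.2 and 16.2 RPKM in the 4 controls and 3.93, 4.23, 4.14 and 5.35 RPKM in the 4 L-GRKO livers, and it fell by 1.58 log2 units (SE 0.12, adjusted p = 6.83e-05 by limma). Zbtb16 measured 16.3, 8.17, 12.2 and 13.8 RPKM in the controls and 0.617, 0.573, 0.602 and 0.847 RPKM in the knockouts. No knockout library came near a control, and the mean fell from 12.6 to 0.66 RPKM. On the log2(RPKM + 0.5) scale used for all tests, which understates the change of low genes, Zbtb16 fell by 3.46 (SE 0.19, limma adjusted p = 6.58e-06), or 11.0-fold.

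Fkbp5 measured 70.2, 35.1, 44.3 and 40.3 RPKM in the GR fl/fl controls and 7.57, 7.08, 6.00 and 7.22 RPKM in L-GRKO, a fall of 2.64 log2 units (SE 0.18, limma adjusted p = 3.83e-05). Tsc22d3 went from 114.5, 80.9, 103.1 and 38.4 RPKM to 24.0, 21.4, 19.5 and 22.6 RPKM, a fall of 1.81 log2 units (SE 0.28, limma adjusted p = 0.00403). Errfi1, the most abundant of the 6, went from 411.7, 348.4, 384.4 and 387.9 RPKM to 126.0, 127.2, 180.6 and 100.2 RPKM, a fall of 1.55 log2 units (SE 0.15, limma adjusted p = 0.000409). No knockout liver reached a control for these 3 genes, though control replicate 4 was low for Tsc22d3 and the knockout livers spread from 100.2 to 180.6 RPKM for Errfi1. Residual levels thus ranged from about 0.66 RPKM for Zbtb16 to 133.0 RPKM for Errfi1 as group means. For Fkbp5, Tsc22d3, Zbtb16 and Errfi1 the fall passed the threshold under every alternative and with any library left out.

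Dusp1 and Sgk1 were the exceptions. Dusp1 measured 48.5, 16.2, 12.996 and 13.6 RPKM in the controls and 8.61, 6.90, 13.045 and 4.77 RPKM in L-GRKO. The third knockout liver lay just above the lowest control, and the log2 fold change of -1.25 (SE 0.40, limma adjusted p = 0.0955) did not pass the threshold. Without control replicate 1, which stood far above the rest, it was -0.82 (limma adjusted p = 0.112). Sgk1 measured 11.7, 9.13, 7.95 and 7.85 RPKM in the controls and 9.38, 7.82, 12.3 and 9.34 RPKM in the knockouts. These groups overlapped throughout, and the log2 difference of 0.08 (SE 0.16, adjusted p = 0.838 by limma) turned its sign with the scaling.

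In all, 4 of the 6 genes were lower in L-GRKO, where 2.22% of the 11649 genes tested were called lower (3.17% after median-ratio scaling), and the members' median log2 fold change was -1.68 against 0.08 over all genes. Knockouts lay below controls with no overlap for those 4 genes, as they did for 3.28% of all genes. Of 19 other glucocorticoid-responsive genes that were measured, 8 fell and 1 rose. Those that fell most were Ddit4, an inhibitor of mTORC1 (log2 fold change -2.30), Cebpd, a transcription factor (-1.19), Tat, which degrades tyrosine (-1.03), and Zfp36, an RNA-binding protein that destabilises cytokine mRNAs (-1.01). Igfbp1, a hepatocyte gene repressed by insulin, fell by 2.62. Among the receptor's own partners only Nr3c1 itself fell, and Serpina6, the plasma carrier of corticosteroids, rose by 1.44. All 3 erythroid markers were higher in L-GRKO, their summed level being 223 to 289 RPKM in controls and 331 to 623 RPKM in knockouts. Of 6 hepatocyte markers 1 fell, Cps1 of the urea cycle, by 0.90 log2 units, with summed levels of 30858 to 44942 RPKM in controls and 32698 to 44270 RPKM in knockouts. Of the stellate cell markers Lrat rose by 0.47, with summed levels of 33.7 to 50.7 RPKM in controls and 48.4 to 71.1 RPKM in knockouts. The part of these markers in the results was not tested.

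**Figure D2:**
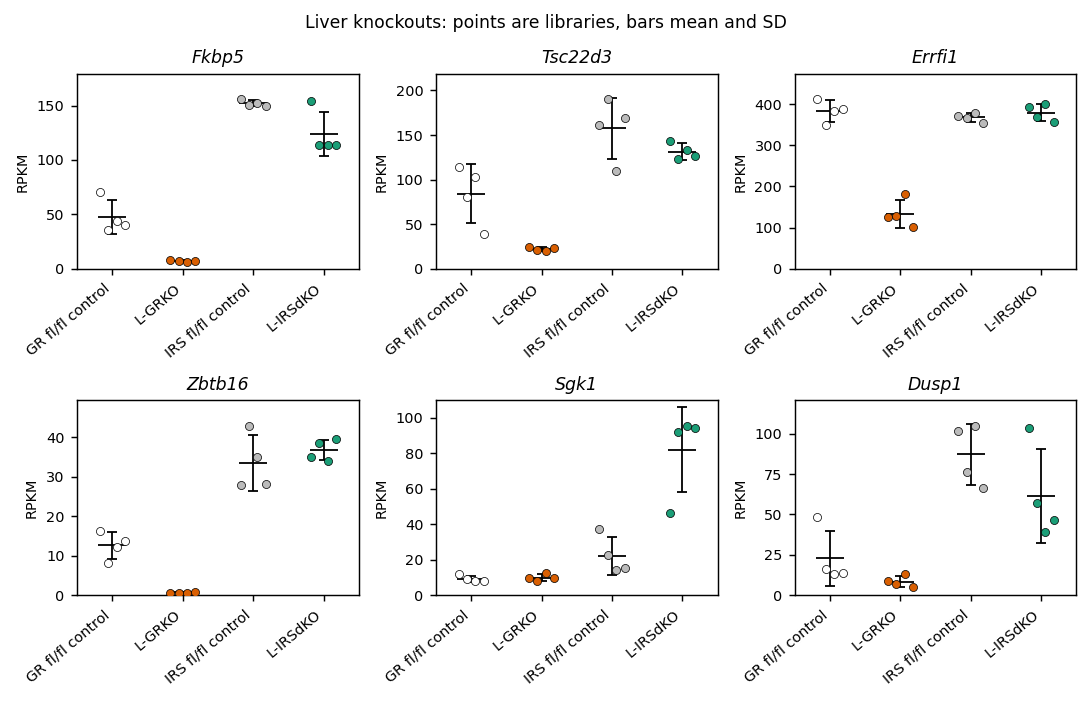
RPKM of the 6 genes in the 4 livers of each group of the L-GRKO and L-IRSdKO experiments. Each panel is 1 gene with an axis from 0, points are single livers and bars are the mean with SD. Zbtb16, Fkbp5, Tsc22d3 and Errfi1 are low in all L-GRKO livers, and Sgk1 is the gene that stands higher in L-IRSdKO.

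The uninjected mice were compared over time of day and over the meal. ZT14-unfed mice had also gone longer without food than ZT10 mice. Clock time, lights-off and length of fast therefore cannot be told apart in the comparison called time of day. From ZT10 to ZT14 without food, Fkbp5 went from 10.2 and 7.42 RPKM to 18.2 and 23.1 RPKM, and Tsc22d3 from 40.6 and 26.0 RPKM to 70.6 and 71.2 RPKM. Both rose, by 1.19 (SE 0.17, limma adjusted p = 0.0116) and 1.12 log2 units (SE 0.19, limma adjusted p = 0.0173). They were 2 of the 6 genes, against 1.98% of 10907 genes called higher (3.19% after median-ratio scaling). Errfi1 was 298.9 and 309.5 RPKM at ZT10 and 376.1 and 372.3 RPKM at ZT14-unfed, a log2 difference of 0.30 (limma adjusted p = 0.066) that passed only after rescaling (0.0482). Zbtb16 (log2 difference 0.36, limma adjusted p = 0.139), Dusp1 (0.50, 0.437) and Sgk1 (-0.01, 0.952) did not pass.

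In the same interval 5 of 16 genes for the receptor, its chaperones and steroid handling rose and 1 fell. They included Hsp90aa1 (log2 fold change 1.71) and Hspa8 (1.497), which hold GR ready for hormone, Stip1 (0.95), which hands clients from HSP70 to HSP90, and, falling, the mineralocorticoid receptor gene Nr3c2 (-1.17). Of 18 other glucocorticoid-responsive genes, 2 rose, Tat (1.38) and the growth-arrest gene Gadd45b (1.23). With 2 livers per group, leaving out ZT10 replicate 2 took Fkbp5 to an adjusted p of 0.0519, and leaving out ZT14-unfed replicate 2 took Tsc22d3 to 0.0518 (limma in both).

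A meal lowered Errfi1 and Zbtb16. Errfi1 went from 376.1 and 372.3 RPKM at ZT14-unfed to 182.5 and 171.8 RPKM at ZT14-fed, a fall of 1.08 log2 units (SE 0.08, limma adjusted p = 0.00158). Zbtb16 went from 6.09 and 7.81 RPKM to 2.70 and 2.72 RPKM, a fall of 1.20 log2 units (SE 0.13, limma adjusted p = 0.00604). They were 2 of the 6 genes, against 1.9% of genes called lower (3.02% after median-ratio scaling). After that scaling Fkbp5 and Sgk1 were called too. Both fed livers lay below both unfed livers for each of the 6 genes, as they did for 14.1% of all genes. Fkbp5 was 11.8 and 12.9 RPKM after the meal (log2 difference -0.71, limma adjusted p = 0.0538), Tsc22d3 47.3 and 46.3 RPKM (-0.60, 0.0959), Sgk1 4.85 and 5.32 RPKM (-0.33, 0.112), and Dusp1 3.12 and 4.24 RPKM (-1.19, 0.0938). With the ZT10 livers left out of the fit, Fkbp5, Tsc22d3 and Dusp1 also passed (limma adjusted p = 0.0456, 0.0209 and 0.0242). Without ZT14-fed replicate 2 the change of Zbtb16 was -1.21 with a limma adjusted p of 0.0675.

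Of the other glucocorticoid-responsive genes, 7 of 18 fell with the meal, with Pck1 of gluconeogenesis at -2.21, Tat at -1.59 and the transcription factor Klf9 at -1.38 on the log2 scale, and 1 rose. Of the meal and insulin references, Igfbp1 fell by 6.35 and G6pc, the last step of glucose output, fell by 3.02. Tsc22d1, a paralog of Tsc22d3, rose by 1.97. Erbb3, a receptor of the family that ERRFI1 inhibits, fell by 1.43.

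In vehicle-injected mice the meal lowered only Tsc22d3 among the 6. Tsc22d3 measured 79.6, 80.7, 80.6 and 83.7 RPKM in unfed and 52.2, 36.3, 40.1 and 55.1 RPKM in fed livers, groups that did not overlap. The fall was 0.84 log2 units (SE 0.21, limma adjusted p = 0.0366), 1 of 6 genes against 0.578% called lower (1.03% after median-ratio scaling). It kept its direction but lost the threshold in 7 of the 20 fits that left out 1 library of the experiment, with fed vehicle replicate 2 left out giving -0.73 (limma adjusted p = 0.119). Errfi1 was 508.3, 513.0, 501.8 and 523.5 RPKM unfed and 428.5, 506.6, 447.9 and 449.9 RPKM fed (log2 difference -0.16, limma adjusted p = 0.333). Zbtb16 was 13.01, 14.7, 13.4 and 16.3 RPKM unfed and 6.41, 9.47, 10.8 and 12.7 RPKM fed (-0.55, 0.205). Fkbp5, Sgk1 and Dusp1 overlapped between the groups (log2 differences -0.26, 0.12 and -0.13). The difference between injected and uninjected mice in the size of the meal effect was not tested, since the experiments differ in library type.

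The other glucocorticoid-responsive genes fell in 5 of 18 cases after vehicle, with Ddit4 at -1.87, Tat at -1.08 and Pck1 at -1.02 log2 units. Igfbp1 fell by 4.08 and G6pc fell by 1.60. Among Kupffer cell markers 2 of 5 were higher in the fed vehicle livers, where their summed level was 62.6 to 98.5 RPKM against 45.1 to 58.7 RPKM in unfed vehicle livers, and the part of this in the results was not tested.

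Dex given before the meal raised Sgk1 and Dusp1 the most. Sgk1 measured 10.5, 10.0, 8.99 and 4.36 RPKM in fed vehicle livers and 57.8, 31.2, 28.9 and 19.6 RPKM in fed dex livers. The groups did not overlap, though the dex livers spread widely, and Sgk1 rose 3.78-fold (log2 fold change 1.92, SE 0.27, limma adjusted p = 0.000761). Dusp1 measured 9.17, 15.1, 10.3 and 19.0 RPKM with vehicle and 40.3, 42.3, 38.9 and 46.5 RPKM with dex, a tight set of dex values well above every vehicle liver. It rose 3.17-fold (log2 fold change 1.67, SE 0.24, limma adjusted p = 0.000775). Tsc22d3 went from 52.2, 36.3, 40.1 and 55.1 RPKM to 59.6, 68.7, 81.4 and 143.2 RPKM, a rise of 0.87 log2 units (SE 0.21, limma adjusted p = 0.027). Dex replicate 4 was the highest, and without it the rise was 0.61 (limma adjusted p = 0.0413). Without fed vehicle replicate 2 or 3 it was 0.77 (limma adjusted p = 0.0984) or 0.81 (0.0685).

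These 3 were the members called of 6, against 1% of 11251 genes called higher (1.49% after median-ratio scaling). After that scaling Fkbp5 and Errfi1 were called too. Fkbp5 was 72.4, 47.1, 83.7 and 40.2 RPKM with vehicle and 84.9, 101.2, 89.7 and 74.3 RPKM with dex (log2 difference 0.58, limma adjusted p = 0.0825). Errfi1 was 522.4, 534.2, 559.1 and 621.4 RPKM with dex, above every vehicle liver (0.29, 0.0827). Zbtb16 was 11.9, 11.4, 11.7 and 19.8 RPKM with dex (0.46, 0.311). Replicate 4 of each injected group comes from a separate run of library numbers in the labels, and with a term for that, 5 of the 6 genes passed, Fkbp5 and Errfi1 being added (limma adjusted p = 0.023 and 0.034).

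Other glucocorticoid-responsive genes rose in 8 of 18 cases with dex and fell in none. The largest rises were those of the iron-siderophore binder Lcn2 (log2 fold change 3.29), Ddit4 (2.70), Gadd45b (2.37) and the metallothionein Mt2 (2.10). Igfbp1 rose by 2.70, and Foxo1 itself by 0.42. None of 16 receptor and chaperone genes passed in either direction. In the fed dex livers 2 of 5 endothelial markers and 1 of 5 Kupffer cell markers were lower, the summed endothelial level being 38.9 to 57.3 RPKM against 61.02 to 67.5 RPKM with vehicle, and their part in the results was not tested.

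Set against unfed vehicle livers, fed dex livers differed in Sgk1 and Dusp1 only among the 6. Sgk1 in unfed vehicle livers was 8.87, 7.15, 8.10 and 5.70 RPKM, and was 4.11-fold higher in fed dex livers (log2 fold change 2.04, SE 0.27, limma adjusted p = 0.000384). Dusp1 in unfed vehicle livers was 12.8, 14.99, 13.7 and 15.1 RPKM, and was 2.90-fold higher in fed dex livers (log2 fold change 1.54, SE 0.24, limma adjusted p = 0.00135). In this comparison 1.64% of genes were called higher (1.62% after median-ratio scaling). Tsc22d3 with dex was at a log2 difference of 0.04 (SE 0.21) from the unfed vehicle level, Zbtb16 of -0.10 (SE 0.24), Errfi1 of 0.13 (SE 0.09) and Fkbp5 of 0.31 (SE 0.18), none of which passed. This comparison shares the fed dex livers with the last and the unfed vehicle livers with the meal comparison.

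Blocking the insulin receptor with S961 in fed mice changed none of the 6 past the threshold. Tsc22d3 was 23.8, 30.4, 21.5 and 32.3 RPKM with S961, below all 4 fed vehicle livers, but its log2 difference of -0.75 (SE 0.21) had a limma adjusted p of 0.0762. It passed with all RefSeq transcripts of the gene summed (limma adjusted p = 0.0171), with the term for library numbers (0.0204) and without fed dex replicate 4 (0.0138). Dusp1 with S961 was 20.8, 19.9, 9.54 and 20.9 RPKM, overlapping the vehicle range (log2 difference 0.39, SE 0.24, limma adjusted p = 0.515). Sgk1 was 5.72, 6.45, 5.54 and 5.11 RPKM (-0.47, 0.485), Fkbp5 42.9, 59.2, 52.8 and 41.0 RPKM (-0.26, 0.566), Zbtb16 8.62, 10.4, 5.18 and 11.4 RPKM (-0.16, 0.846) and Errfi1 482.8, 483.4, 393.0 and 405.2 RPKM (-0.06, 0.846). In this comparison 1.9% of genes were called in either direction (1.77% after median-ratio scaling), and 0 of 6 members by limma. Only Tsc22d3 among the 6 reached an unadjusted p under 0.05 in limma, as did 14.3% of all genes. Among insulin references with S961, Srebf1, the lipogenic transcription factor, fell by 1.84 and G6pc rose by 1.80 log2 units. Among pathway partners Erbb3 rose by 0.98 and Nedd4l, a ubiquitin ligase that SGK1 phosphorylates, by 0.93. Of 5 Kupffer cell markers 2 were lower with S961, Cd5l (-0.74) and Adgre1 (-0.90), the summed level being 42.7 to 64.5 RPKM against 62.6 to 98.5 RPKM with vehicle, and their part in the results was not tested.

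Dex on top of S961 raised 5 of the 6 genes, against 1.04% of genes called higher (1.54% after median-ratio scaling). Sgk1 was 26.8, 17.4, 16.4 and 17.8 RPKM with both agents, all above the S961 livers, a 3.19-fold rise (log2 fold change 1.67, SE 0.27, limma adjusted p = 0.00172). Tsc22d3 was 80.4, 56.2, 65.9 and 65.0 RPKM, a rise of 1.30 log2 units (SE 0.21, limma adjusted p = 0.00148). Fkbp5 was 96.9, 98.1, 96.2 and 86.0 RPKM, a rise of 0.95 log2 units (SE 0.18, limma adjusted p = 0.00513). The groups stood apart for all 3, and for Dusp1 and Errfi1, as they did for 2.12% of all genes in this direction. The rises of Sgk1, Tsc22d3 and Fkbp5 passed under every alternative.

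Dusp1 was 31.5, 32.6, 31.8 and 55.1 RPKM with both agents, a rise of 1.09 log2 units (SE 0.24, limma adjusted p = 0.0209) that became 0.89 (limma adjusted p = 0.0803) without its highest library, replicate 4, and 0.82 (0.0641) without fed S961 replicate 3. Errfi1 was 573.4, 554.4, 590.1 and 584.8 RPKM, a rise of 0.39 log2 units (SE 0.09, limma adjusted p = 0.0254), which lost the threshold in 6 fits that left out a library of these groups, the adjusted p reaching 0.0741. Zbtb16 was 9.23, 13.9, 12.3 and 16.3 RPKM, overlapping the S961 livers (0.54, SE 0.24, limma adjusted p = 0.342). Other glucocorticoid-responsive genes rose in 10 of 18 cases and fell in none, led by Ddit4 (3.07), Lcn2 (2.98), Gadd45b (2.86) and the cell-cycle inhibitor Cdkn1a (2.54). Foxo1 rose by 0.79.

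S961 on top of dex changed 0 of the 6 by limma without a replicate block, against 2.96% of genes called in either direction (3.25% after median-ratio scaling). The nearest was Sgk1, at a log2 difference of -0.71 (SE 0.27, unadjusted p = 0.0178, limma adjusted p = 0.193), which had the only unadjusted p under 0.05 among them (15.8% of all genes had one) and which passed with the term for library numbers (0.0495). Same-numbered fed dex and fed dex + S961 livers varied together, and with the replicate number as a block Sgk1 fell by 0.71 (SE 0.19, limma adjusted p = 0.0331). For the interaction of dex with S961, limma called 0% of genes (0% after median-ratio scaling), and 513 genes (4.56%) had an unadjusted p under 0.05, none of them a member. The members' interaction terms ran from -0.58 (SE 0.34) for Dusp1 to 0.43 (SE 0.30) for Tsc22d3, which leaves room for sizeable differences in either direction.

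**Figure D3:**
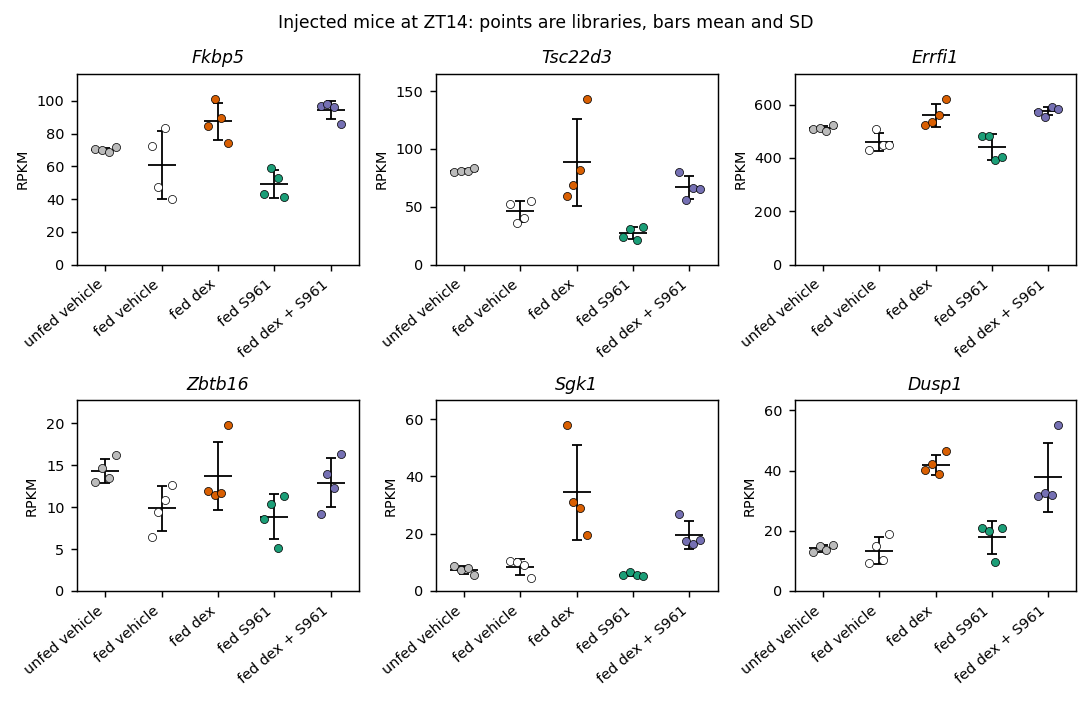
RPKM of the 6 genes in the injected mice at ZT14 (unfed vehicle, fed vehicle, fed dex, fed S961, fed dex + S961, 4 livers each). Points are single livers, bars the mean with SD, and each axis starts at 0. Sgk1 and Dusp1 are highest in the 2 groups given dex, and Tsc22d3 is lowest among injected mice in fed S961 livers.

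In L-IRSdKO livers, fed and given dex like their controls, Sgk1 was the only member called. Of the targeted genes, Irs1 measured 2.21, 4.70, 4.73 and 4.50 RPKM in controls and 0.149, 0.155, 0.321 and 0.170 RPKM in knockouts (log2 fold change -2.66, limma adjusted p = 0.000916). Irs2 measured 0.614, 1.63, 5.61 and 0.929 RPKM in controls and 0.272, 1.00, 0.932 and 0.886 RPKM in knockouts, which overlapped and did not pass. Sgk1 measured 37.3, 22.4, 14.1 and 15.05 RPKM in the controls and 46.1, 92.0, 95.3 and 94.1 RPKM in L-IRSdKO. Every knockout lay above every control, and 3 of them were close together with replicate 1 far lower. Sgk1 rose 3.75-fold (log2 fold change 1.91, SE 0.34, limma adjusted p = 0.00806), against 9.06% of 12966 genes called higher (8.12% after median-ratio scaling), and without L-IRSdKO replicate 1 the rise was 2.16 (limma adjusted p = 0.0015).

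L-IRSdKO replicate 1 also decided 2 other genes. Fkbp5 measured 155.7, 150.9, 152.4 and 149.6 RPKM in controls and 154.4, 113.8, 114.1 and 113.7 RPKM in knockouts, so that replicate 1 lay with the controls and the other 3 below. With all livers the log2 difference was -0.31 (SE 0.10, limma adjusted p = 0.066), and without replicate 1 it was -0.42 (limma adjusted p = 0.000604). Dusp1 measured 101.6, 76.3, 105.0 and 66.5 RPKM in controls and 103.9, 56.9, 38.9 and 46.8 RPKM in knockouts. Its log2 difference was -0.58 (SE 0.28, limma adjusted p = 0.193), and -0.86 (limma adjusted p = 0.0115) without replicate 1. Tsc22d3 was 161.7, 189.9, 109.2 and 168.9 RPKM in controls and 143.5, 123.1, 133.3 and 126.1 RPKM in knockouts (-0.23, 0.326), and passed without control replicate 3 (-0.40, 0.0234). Zbtb16 was 27.9, 42.9, 35.004 and 28.1 RPKM against 35.1, 38.5, 34.1 and 39.6 RPKM (0.15, 0.476), and Errfi1 371.7, 366.9, 378.9 and 353.6 RPKM against 394.3, 368.6, 399.3 and 356.7 RPKM (0.05, 0.603). Errfi1 lay close to the level of the top gene in this experiment, and whether that limited its difference was not tested.

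Of 19 other glucocorticoid-responsive genes, 4 rose and 2 fell in L-IRSdKO. The fuel-switching kinase Pdk4 rose by 3.56 log2 units, the stress gene Sesn1 by 1.94 and Ddit4 by 1.66, while Pik3r1, a subunit of PI3 kinase, fell by 1.24. Igfbp1 rose by 3.30. Immediate-early genes, listed because Dusp1 is one as well as a GR target, rose in 6 of 11 cases and fell in none, led by Egr1 (3.02), Junb (1.14) and Ier3 (1.00). Erbb3 rose by 1.498, and the SGK1 substrate Ndrg1 by 0.72. Among chaperones of the receptor Fkbp4, a paralog of Fkbp5, fell by 0.78 and Hsp90aa1 by 0.67. Endothelial markers were higher in 3 of 5 cases, with summed levels of 90.5 to 114.7 RPKM in controls and 100.2 to 143.4 RPKM in knockouts, and the summed Kupffer cell level was 141 to 262 RPKM in controls and 248 to 318 RPKM in knockouts, Clec4f alone of 5 being called higher. Cholangiocyte markers were lower in 2 of 3 tested, Krt7 (-1.14) and Spp1 (-1.65), with summed levels of 18.3 to 43.6 RPKM in controls and 7.08 to 12.7 RPKM in knockouts. The erythroid marker Alas2 fell by 2.30, the hepatocyte marker Ttr fell by 0.45 and the stellate marker Dcn rose by 0.28. The part of these markers in the results was not tested.

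In lean mice a meal lowered 5 of the 6 genes. Zbtb16 moved most, from 15.5, 13.9 and 14.6 RPKM in unfed to 3.70, 3.07 and 0.864 RPKM in fed livers, a 5.53-fold fall (log2 fold change -2.47, SE 0.47, limma adjusted p = 0.00449). Sgk1 went from 10.9, 11.8 and 7.99 RPKM to 4.12, 5.57 and 4.97 RPKM, a fall of 0.99 (SE 0.17, limma adjusted p = 0.00261). Tsc22d3 went from 100.7, 98.9 and 111.2 RPKM to 44.6, 55.8 and 52.3 RPKM, a fall of 1.02 (SE 0.21, limma adjusted p = 0.00566). No fed liver reached an unfed one for any of the 6 genes, as for 14.3% of all genes. The falls of Zbtb16, Sgk1 and Tsc22d3 passed under every alternative.

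Errfi1 went from 533.9, 569.9 and 583.2 RPKM to 328.2, 369.6 and 228.5 RPKM, a fall of 0.89 log2 units (SE 0.23, limma adjusted p = 0.0195), which was 0.69 (limma adjusted p = 0.0741) without lean fed replicate 3 and also lost the threshold without lean unfed replicate 2 or 3 (0.0552 and 0.0561). Dusp1 went from 22.0, 39.9 and 22.3 RPKM to 11.4, 15.9 and 16.04 RPKM, also by 0.89 (SE 0.28, limma adjusted p = 0.0421), but the fall failed the threshold in 8 fits that left out 1 library and was 0.61 (limma adjusted p = 0.149) without lean unfed replicate 2. Fkbp5 went from 83.4, 56.7 and 61.6 RPKM to 53.0, 22.2 and 32.2 RPKM, a log2 difference of -0.97 (SE 0.34, limma adjusted p = 0.0589), and passed without lean fed replicate 1 (-1.29, 0.0249).

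In lean mice 7.28% of 11434 genes were called lower after the meal (9.85% after median-ratio scaling). After that scaling Fkbp5 was called too. Other glucocorticoid-responsive genes fell in 14 of 18 cases and 1 rose, with Mt2 at -3.50, Ddit4 at -3.07, Pck1 at -2.55 and the metallothionein Mt1 at -2.19. Receptor and chaperone genes rose in 7 of 16 cases and 1 fell, with Hsp90aa1 at 1.43 and Fkbp4 at 1.07. Immediate-early genes fell in 4 of 9 cases, with Egr1 at -1.61, Btg2 at -1.08 and Zfp36 at -1.04. Foxo1 fell by 1.23 and Foxo3 by 1.33, and Igfbp1 by 6.22. The summed endothelial markers were 52.7 to 62.9 RPKM in lean unfed and 39.1 to 45.1 RPKM in lean fed livers, 4 of 5 being lower, and their part in these results was not tested.

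In obese mice 0 of the 6 genes passed by limma after the meal, against 7.65% of genes called in either direction (7.06% after median-ratio scaling), while 2 members, Tsc22d3 and Dusp1, had an unadjusted p under 0.05, as did 25.2% of all genes. Dusp1 was 5.35, 11.0 and 5.66 RPKM in obese unfed and 14.1, 15.5 and 11.6 RPKM in obese fed livers, all fed above all unfed (log2 difference 0.92, SE 0.28, limma adjusted p = 0.0694). Tsc22d3 was 23.3, 46.6 and 31.0 RPKM unfed and 43.9, 58.9 and 50.5 RPKM fed, with overlap (0.64, SE 0.21, 0.0786). Without obese unfed replicate 2 both passed as rises, Dusp1 at 1.24 (limma adjusted p = 0.0273) and Tsc22d3 at 0.91 (0.0175). Fkbp5 was 14.5, 27.9 and 29.4 RPKM unfed and 38.5, 27.6 and 22.6 RPKM fed (0.33, 0.59). Sgk1 was 5.58, 3.79 and 3.85 RPKM unfed and 5.39, 5.00 and 5.52 RPKM fed (0.26, 0.366), Zbtb16 5.55, 13.95 and 5.43 RPKM unfed and 6.98, 4.47 and 2.29 RPKM fed (-0.77, 0.338), and Errfi1 415.3, 280.8 and 316.0 RPKM unfed and 220.7, 291.4 and 415.1 RPKM fed (-0.15, 0.73). Of 18 other glucocorticoid-responsive genes 1 fell, Klf9 (-0.65). Igfbp1 still fell in obese mice, by 2.29, and 6 of 16 receptor and chaperone genes rose, with Hsp90aa1 at 1.40.

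Before the meal, 4 of the 6 genes were lower in obese than in lean livers, against 1.7% of genes called lower (2.21% after median-ratio scaling). Dusp1 was 3.68-fold lower (log2 fold change -1.88, SE 0.28, limma adjusted p = 0.00696), Tsc22d3 3.17-fold lower (-1.66, SE 0.21, 0.00276), Fkbp5 2.86-fold lower (-1.52, SE 0.34, 0.0297) and Sgk1 2.19-fold lower (-1.13, SE 0.17, 0.00659). The 3 obese livers lay below the 3 lean ones for each of these genes, as they did for 6.73% of all genes. Errfi1 (-0.76, 0.0871), whose obese livers also lay below the lean ones, and Zbtb16 (-0.91, 0.268) did not pass. Fitted on the 6 unfed livers alone, the same 4 genes had limma adjusted p of 0.0807, 0.0528, 0.0861 and 0.0807, so the calls rest on the spread shared with the fed livers, and that of Fkbp5 also needed all 3 lean unfed livers (0.0595 to 0.0972 without one).

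Other glucocorticoid-responsive genes were lower in 7 of 18 cases in obese unfed livers and higher in none, with Ddit4 at -4.37, Tat at -2.10, Gadd45b at -1.58 and Cebpd at -1.49. Igfbp1 was lower by a log2 difference of -3.65. No receptor or chaperone gene of 16 passed. Summed endothelial markers were 31.8 to 40.6 RPKM in obese unfed livers against 52.7 to 62.9 RPKM in lean unfed livers, with 3 of 5 lower, and their part in the results was not tested. After the meal 0 of the 6 genes differed between obese and lean livers by limma, where 0.499% of genes were called in either direction (0.332% after median-ratio scaling), and 0 of the 6 had an unadjusted p under 0.05, which 20% of all genes had. The differences then ran from -0.22 (SE 0.34) for Fkbp5 to 0.78 (SE 0.47) for Zbtb16.

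The meal effect itself differed with diet for Tsc22d3 and Sgk1. The interaction, obese minus lean, was 1.67 for Tsc22d3 (SE 0.29, limma adjusted p = 0.03) and 1.25 for Sgk1 (SE 0.24, 0.0425), 2 of 6 genes against 0.42% called higher (0.664% after median-ratio scaling). All 6 terms were positive, the others being 1.81 for Dusp1 (limma adjusted p = 0.0684), 1.69 for Zbtb16 (0.269), 1.30 for Fkbp5 (0.234) and 0.74 for Errfi1 (0.327), and they share the lean unfed livers with the comparisons above. Leaving out any 1 of the 12 libraries gave 0 to 2 called members: Tsc22d3 lost the threshold in 9 of these fits (limma adjusted p up to 0.0786) and Sgk1 in 10 (up to 0.109). Of the other glucocorticoid-responsive genes Ddit4 (3.45), Tat (1.99) and Cebpd (1.51) passed in the same direction, 3 of 18, as did Igfbp1 (3.93).

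**Figure D4:**
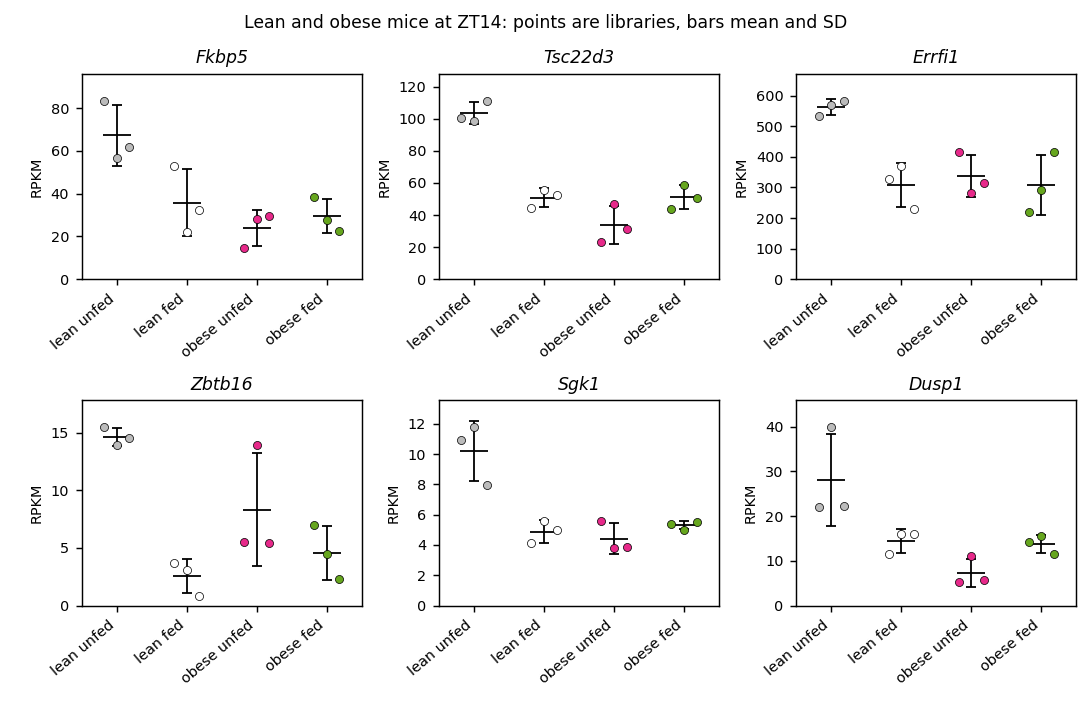
RPKM of the 6 genes in lean and obese mice, unfed and fed, 3 livers per group. Points are single livers, bars the mean with SD, and each axis starts at 0. Lean unfed livers have the highest mean for each gene, and for Dusp1, Fkbp5, Tsc22d3, Sgk1 and Errfi1 the obese unfed livers lie below them.

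Placed side by side, the 6 genes differed in the comparisons in which they were called. Sgk1 was called with dex (3.78-fold), with dex on S961 (3.19-fold) and in L-IRSdKO, where Irs1 but not Irs2 was called lower (3.75-fold). In the other direction it was called with the meal in lean mice (1.98-fold lower) and with obesity before the meal (2.19-fold lower). It was not called with loss of GR in unfed livers, which had received no dex. Its means there were 9.17 RPKM in controls and 9.72 RPKM in knockouts. Zbtb16 had the largest fall in L-GRKO (11.0-fold) and in the lean meal (5.53-fold), but did not pass with dex in either setting. Errfi1 fell 2.92-fold in L-GRKO and 2.11-fold with the meal in uninjected mice. In the main fit it was called with dex only on S961 (1.31-fold). With dex alone Errfi1 was 1.22-fold higher, which passed after median-ratio scaling. Tsc22d3 was called in the most comparisons of the 6. Whether such patterns differ between the genes was not tested.

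**Figure D5:**
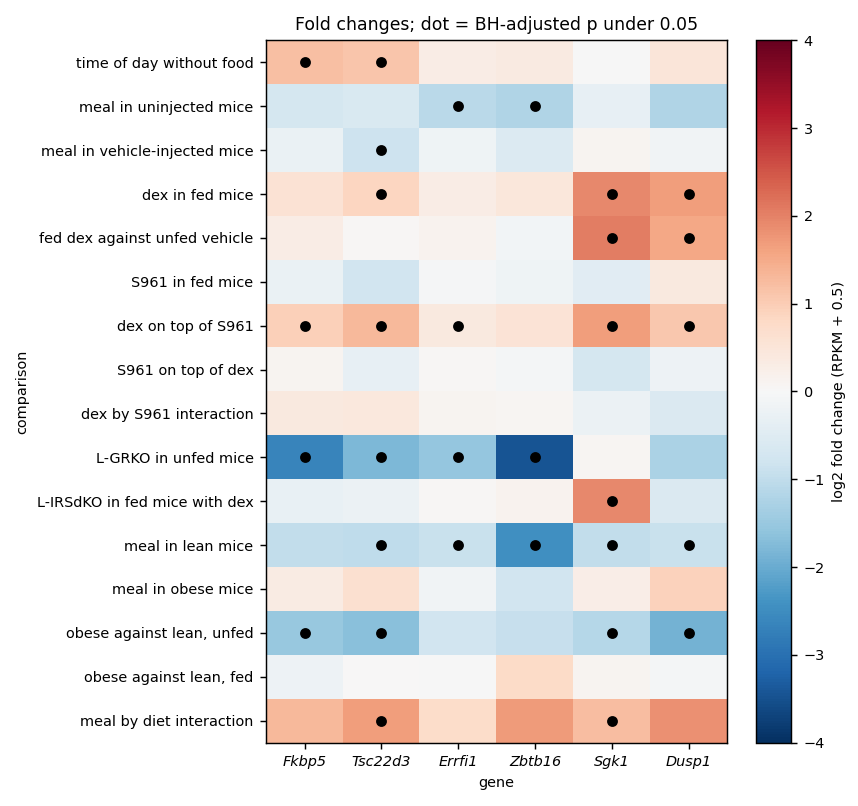
Log2 fold change of the 6 genes (columns) in the 16 comparisons (rows) on the log2(RPKM + 0.5) scale, with a dot where the BH-adjusted p is under 0.05. The comparisons within an experiment share livers. The L-GRKO row holds the lowest values, -3.46 for Zbtb16 and -2.64 for Fkbp5, with Sgk1 at 0.08, and the row for dex in fed mice is highest for Sgk1 and Dusp1.

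Across all 54 libraries, after each experiment was centred on its own mean, the members ran together to different extents. Pearson's r on the log2 scale was 0.79 for Errfi1 with Zbtb16, 0.77 for Fkbp5 with Tsc22d3, 0.74 for Fkbp5 with Zbtb16 and 0.71 for Errfi1 with Fkbp5. Sgk1 stood apart, with r between 0.14 and 0.40 with the other 5, the highest being with Dusp1. Among 10521 genes that passed the filter everywhere, those most like Fkbp5 were St3gal5 (r = 0.86), Tmc7 (0.85) and Fmo5 (0.84). For Tsc22d3 they were Fmo5 (0.83), Tat (0.81) and Tcim (0.79), and for Sgk1 Tiparp (0.87), Itgb3 (0.81) and Phf11c (0.80). For Zbtb16 they were Il6ra (0.87), Lpin1 (0.87) and Cdip1 (0.85), for Errfi1 Lpin1 (0.89), Tmc7 (0.85) and Irf2bp2 (0.84), and for Dusp1, of which 2 are given, Hip1r (0.74) and Bcl2l1 (0.74). These values are descriptions, as the libraries share their groups, their sequencing and the study's treatments.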

How the data were processed

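Liver RNA was sequenced by the authors and aligned to mm9 with STAR. The submitters' processing notes also name HOMER and DESeq2, and versions are not given in the sources used here. The deposited values are RPKM per RefSeq transcript, made by the authors. Uninjected libraries were ribo-depleted and the rest polyA-enriched. The authors called GR and FOXO1 peaks on ChIP-seq, and DHS on combined DNase-seq reads, from livers pooled over several mice. By the paper, the GR and FOXO1 peaks are those of ZT14-unfed livers. The deposited peak coordinates were used, and their signal and score columns were not. Of 35707 RefSeq IDs, 35407 had a symbol, and 1 ID per symbol was kept by mean RPKM. No value column was left unused (0).

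Each experiment was fitted apart with all its groups in limma 3.58.1 (R 4.3.3, eBayes with trend) on log2(RPKM + 0.5), after genes whose mean over the experiment was below 0.5 RPKM were dropped, with Benjamini-Hochberg (BH) adjustment over all genes tested, two-sided, at 0.05. The study's DESeq2 test needs counts and was not run. Depth was estimated from low RPKM values of single-transcript genes, as the most common library size implied if each value were 1 read. By these estimates 1 read on a 2 kb transcript equals 0.0081 to 0.135 RPKM, which limits precision for low genes. The upper end comes from the L-IRSdKO experiment, whose depth was underestimated, so it is too high. No 2 libraries were identical (0 pairs). Same-numbered livers were judged to be paired only for fed dex + S961 against fed S961 (deviations correlated at 0.113 to 0.594) and against fed dex (0.108 to 0.443). Even there the main tests used no replicate block, which was run only as an alternative over all groups of the experiment. The pairing comes from the data, not the labels, and replicate 4 has the highest values. Start sites were those of the lowest-numbered GENCODE protein-coding transcript on mm9. Scripts were tested on simulated data.

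The members, gene lists and tests were chosen with earlier results of these data known. Besides the members, text names the targeted genes, the 3 genes most like each member, at most 4 called genes per list and comparison, and Igfbp1 and G6pc. Some genes that this rule names are not reported here. Alternatives covered pseudocount, filter, scaling, transcript choice, variance trend, samples fitted, replicate block, library-number series, threshold and each library left out. Python 3.11.15, pandas 2.3.3, numpy 2.4.6, pysam 0.24.0 and matplotlib 3.10.9 were used.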

Additional observations from a re-analysis of the deposited data

Results flagged for a closer look

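In groups of 4 livers, a library was singled out where its gap to the nearest other took up most of the group's range (Dixon's test at 95%). Of 54 gene and group combinations tested, 8 were singled out, where chance gives about 1 in 20. Among them was L-IRSdKO replicate 1, at 154.379 RPKM for Fkbp5 (the other 3 at 113.7 to 114.1) and at 46.106 RPKM for Sgk1 (the other 3 at 92.0 to 95.3). Fed dex + S961 replicate 4 was low for Fkbp5 at 86.029 RPKM (the others 96.2 to 98.1) and high for Dusp1 at 55.057 RPKM (the others 31.5 to 32.6), and replicate 1 of that group was high for Sgk1 at 26.828 RPKM (the others 16.4 to 17.8). Fed dex replicate 4 was high for Zbtb16 at 19.778 RPKM (the others 11.4 to 11.9). Fed S961 replicate 3 was low for Dusp1 at 9.536 RPKM (the others 19.9 to 20.9). GR fl/fl control replicate 1 was high for Dusp1 at 48.469 RPKM (the others 12.996 to 16.2).

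The meal effect differed between obese and lean mice, by the interaction term in limma, for Tsc22d3 (1.67 on the log2 scale, adjusted p = 0.03) and Sgk1 (1.25, adjusted p = 0.0425). Each of these calls was lost in most fits that left out 1 library. Across the 3 lean fed livers Tsc22d3 was lower than in all 3 lean unfed livers, while in obese mice the fed and unfed livers overlapped.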

How the results depend on the processing

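Over 96 member results (6 genes in 16 comparisons), 31 passed the threshold, and 0 of these changed sign under any alternative, while 15 of the others did. 16 passed under every alternative, among them Fkbp5, Tsc22d3, Zbtb16 and Errfi1 in L-GRKO, Sgk1 and Dusp1 with dex and Sgk1 in L-IRSdKO. The counts of called members that moved by more than 1.5 times were as follows, and the cause was not tested. At an adjusted p under 0.01, time of day, the meal in vehicle-injected mice and the meal by diet interaction each had 0, dex on top of S961 and the meal in lean mice each had 3. With no filter on low values, time of day, the meal in vehicle-injected mice and the interaction again had 0 each, with more genes tested. Scaling by median ratio gave 4 for the meal in uninjected mice and 5 for dex in fed mice, and quantile normalization gave 4 for the former. With only the groups compared, the meal in uninjected mice had 5, dex on top of S961 had 3 and obese against lean unfed had 0, with fewer samples behind the spread. Summing RefSeq IDs gave 1 for S961. The library-number term gave 5 for dex, 1 for S961 and 1 for S961 on top of dex. GR peaks near the members numbered 12 within 20 kb and 56 within 100 kb.

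Same-numbered livers correlated above 0.1 in 0 of 6 pairs in uninjected mice, 27 of 40 in injected mice (from -0.12 to 0.605), 1 of 4 in L-GRKO, 0 of 4 in L-IRSdKO and 3 of 18 in the diet experiment. Every pair was above 0.1 in 2 of the 10 group pairs of injected mice, fed S961 with fed dex + S961 and fed dex with fed dex + S961. Only there were the numbers judged to pair the livers, and no main test used that pairing. Replicate 4, from the separate run of library numbers, correlated at 0.441 to 0.605 across all group pairs of injected mice. The main tests held no term for that run. With a replicate block, dex had 5 called members, S961 had 1, S961 on top of dex 1 and the meal in obese mice 2, and no other count moved by more than 1.5 times.

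With 1 library left out at a time, the called members ranged from 1 to 2 for time of day, 1 to 5 for the meal in uninjected mice, 0 to 1 for the meal in vehicle-injected mice, 2 to 3 for dex, 0 to 1 for S961, 3 to 5 for dex on S961, 1 to 3 for L-IRSdKO, 3 to 6 for the meal in lean mice, 0 to 2 for the meal in obese mice, 3 to 5 for obese against lean unfed and 0 to 2 for the interaction, and stayed at 4 for L-GRKO.

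Log2 values that changed sign, none of them called, were these. Sgk1 for time of day was 0.11 under median-ratio scaling, 0.079 under quantile normalization and from -0.11 to 0.086 with a library left out, and in L-GRKO -0.013, -0.0055 and from -0.036 to 0.20. Errfi1 with S961 was 0.031 under median-ratio scaling. Tsc22d3 for obese against lean fed was -0.013 under median-ratio scaling, -0.003 with IDs summed and from -0.10 to 0.10 with a library left out. With a library left out, Dusp1 ranged from -0.14 to 1.13 for time of day, from -0.31 to 0.025 for the vehicle meal and from -0.22 to 0.049 for obese against lean fed. Tsc22d3 ranged from -0.22 to 0.19 for fed dex against unfed vehicle. Zbtb16 ranged from -0.34 to 0.067 for S961, from -0.19 to 0.11 for S961 on dex and from -0.14 to 0.27 for the dex by S961 interaction. Sgk1 ranged from -0.48 to 0.037 for that interaction. Errfi1 ranged from -0.39 to 0.064 for the meal in obese mice and from -0.25 to 0.20 for obese against lean fed, and Fkbp5 from -0.51 to 0.11 for the last.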
